A study of Mus musculus with 34 samples.

Results

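Monocytes from mouse bone marrow were cultured with medium conditioned by one of 2 tumor lines, and this comparison sets the 3 libraries given MC38 supernatant against the 3 given LLC supernatant, 6 of the 34 libraries in the series. MC38 is a mouse colon carcinoma line and LLC is the Lewis lung carcinoma line. The members were chosen by their titles, in_vitro_TuMon1 for MC38 and in_vitro_TuMon2 for LLC, and 4 untreated control cultures were fitted beside them. All 10 came from bone marrow of C57/Bl6 mice and were sorted by flow cytometry, with no genetic change named in the labels. After MC38 supernatant the sorted cells are labelled Ly6C+ CD88+ Sca1+, after LLC supernatant Ly6C+ CD88+ Sca1-, and in control cultures only Ly6C+. Supernatant and Sca1 gate therefore changed together, so every difference between the supernatants belongs to both and their shares cannot be told apart. Against control cultures the CD88 gate changes as well, and its share cannot be told apart either. The age and sex of the mice, the time in supernatant, and whether replicates were separate cultures or animals are given in none of the sources used here, so the p-values measure the spread between these samples, which may be technical.

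Ly6C+ monocytes are short-lived blood cells made in the bone marrow that enter inflamed tissue and tumors, where they can become macrophages. Interferons, secreted on sensing foreign nucleic acid, act on such cells through the JAK-STAT pathway, and a complex that holds STAT2 and IRF9 binds the interferon-stimulated response element (ISRE) before antiviral genes. Cholesterol genes are controlled by supply, since low membrane cholesterol releases the factor SREBP2, which turns them on.

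The polyadenylated RNA of each library gave between 13047772 and 26966644 estimated counts, and 14054 to 16908 genes had counts. Levels are given in CPM, the count scaled by the size of its library, for replicates 1, 2 and 3 in that order. The difference between supernatants is the log2 of MC38 over LLC with its standard error, and every value below written with ± or as higher or lower by an amount is such a log2 difference. A gene was called when its edgeR quasi-likelihood test, adjusted by the Benjamini-Hochberg method over 12603 genes, was under 0.05. CPM is not corrected for gene length, so levels are compared between libraries and not between genes. In RNA of whole samples, fewer cells that make a transcript and less of it per cell cannot be told apart.

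The labels were checked first against the genes of the sorted antigens. Ly6a, the gene of Sca1 (GRCm38 chromosome 15, 74994877 to 74998031), stood at 1557, 1628 and 1344 CPM after MC38 supernatant and 11.9, 11.5 and 11.2 CPM after LLC supernatant, with control cultures at 8.13 to 12.2 CPM. The groups lay apart as their gates say, and since the gate chose the cells by this protein the difference is a check and not a finding. C5ar1, which encodes CD88, stood at 666, 669 and 562 CPM after MC38 supernatant and 639, 637 and 601 CPM after LLC supernatant, against 11.2 to 15.2 CPM in control cultures, whose labels name no CD88 gate. The supernatant groups overlapped in C5ar1 (log2 difference 0.01 ± 0.10, adjusted p = 0.93), and its sign turned under other scalings. Ly6c2, a gene of the Ly6C antigen, was at 1338, 1393 and 1204 CPM after MC38 supernatant and 14.5, 14.9 and 12.2 CPM after LLC supernatant, and at 1884, 1520.5, 1887 and 1885 CPM in control cultures. All 3 groups carry the Ly6C+ label, and the LLC libraries had little of the transcript. Ly6c2 and its neighbor Ly6c1 are near-identical copies, so the share of reads given to each is uncertain.

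Markers of monocytes and macrophages were present throughout, and the summed level of 12 such genes ranged from 13975 to 16072 CPM after MC38 supernatant, 26651 to 27298 CPM after LLC supernatant and 18899 to 22947 CPM in control cultures. Lyz2 gave most of this sum after LLC supernatant and in control cultures but not after MC38 supernatant, and none of the 12 was at 0 in any group. MC38 supernatant replicate 3 held connective-tissue transcripts, with 18 fibroblast markers summing to 4887 CPM against 8.78 and 10.8 CPM in the other 2 MC38 libraries and 5.15 to 7.57 CPM after LLC supernatant. Col1a1, a collagen chain, was at 0.815, 0.724 and 1014 CPM across the MC38 libraries. Control culture replicate 2 held striated muscle (251.6 CPM summed) and epithelial markers (88.4 CPM), where the other 9 libraries had at most 4.51 and 4.34 CPM. Dendritic cell markers summed to 8.19, 8.37 and 43.5 CPM after MC38 supernatant and to at most 0.990 CPM after LLC supernatant, endothelial markers to 26.1, 26.7 and 84.7 CPM and to at most 9.70 CPM, and progenitor markers to 26 to 31.4 CPM and to at most 6.58 CPM. Control cultures had 45.7 to 69.1, 19.8 to 22.9 and 47.2 to 57.1 CPM of the same lists. Neutrophil and granule markers summed to 1492 to 1807 CPM after MC38, 1709 to 1767 CPM after LLC supernatant and 2455 to 3149 CPM in control cultures. In the supernatant groups Mmp8, a neutrophil collagenase, gave nearly all of this sum (1375 to 1648 and 1694 to 1748 CPM) and was not called. Of the 13 members, 11 were higher after MC38 than after LLC supernatant and 0 lower (median 2.96), or 12 higher without MC38 supernatant replicate 3. S100a8, a calcium-binding alarmin, was at 31.5, 34.9 and 24.6 CPM after MC38 supernatant and 2.55, 3.48 and 1.58 CPM after LLC supernatant (log2 difference 3.57 ± 0.26), and Camp, a granule peptide, and Elane, neutrophil elastase, differed by 4.03 ± 0.29 and 2.95 ± 0.29, at under 5 CPM in the supernatant libraries. Of 10 T and NK cell markers, which summed to under 1 CPM in each of the 6 supernatant libraries, 2 had no count in any MC38 library and 5 in any LLC library. The part of such cells in the differences below was not tested beyond the fits without replicate 3. Each gene and list below was also fitted without this library, and without each other library in turn. Where that ended a call or moved the value of a gene by over 1.5 times, the value is given. Moves of list counts are given only in part. Of 106 list counts, 41 stayed within 1.5 times under every alternative run.

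Among the 12603 genes, 2723 stood higher (21.6%) and 2332 lower (18.5%) with MC38 than with LLC supernatant, with a median log2 difference of 0.05. Beyond 2-fold were 714 of the higher and 507 of the lower. Without MC38 supernatant replicate 3, 2605 were higher (20.5%) and 2525 lower (19.8%) of 12738 tested, and 4506 genes were called in the same direction in both fits. Against control cultures, MC38 supernatant gave 4460 higher (35.4%) and 4092 lower (32.5%), and LLC supernatant 4068 higher (32.3%) and 4547 lower (36.1%). Both of these comparisons use the same 4 control libraries, and their values are set side by side below only to place each gene. The 3 and 3 libraries did not overlap for 60.2% of all genes tested, so separation alone marks no gene out. Counts of list members called are to be read beside the shares of all genes given here.

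**Figure D1:**
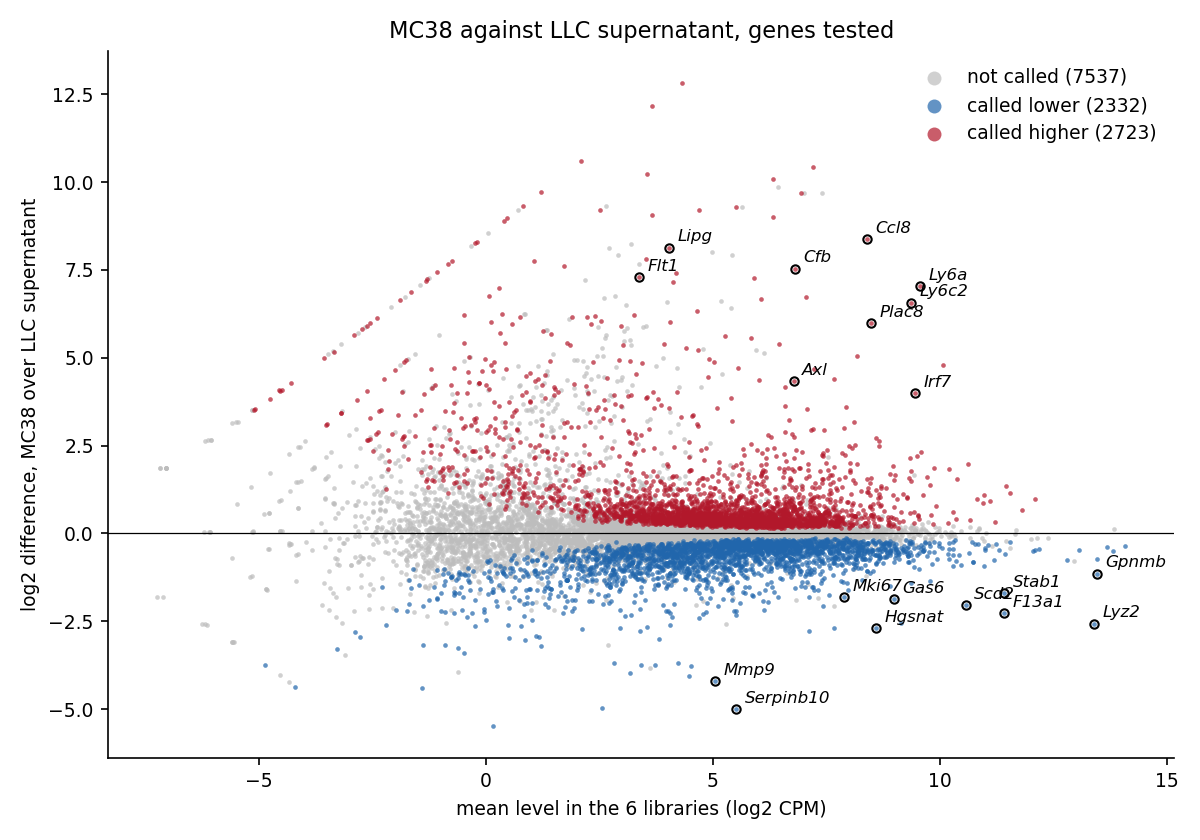
Mean level (log2 CPM over the 6 libraries, horizontal axis) and log2 difference between MC38 and LLC supernatant (vertical axis) of the 12603 genes tested, with the 2723 genes called higher in red, the 2332 called lower in blue and the rest in gray. The 11 genes with no count in these 6 libraries are not drawn. Ccl8 lies at 8.37 and Serpinb10 at -4.99.

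Genes of the interferon pathway were higher after MC38 supernatant for a ligand, for most signaling genes and for nearly all effectors. Of 10 interferon genes listed, 1 passed the filter on low counts. Ifnb1, interferon beta, was at 0.588, 0.588 and 0.455 CPM after MC38 supernatant and had no count in the LLC or control libraries, which makes it at least 12.9-fold higher against a floor of 3 counts over the LLC group (adjusted p = 0.00614). The call was lost without MC38 replicate 1 or 2 (adjusted p = 0.0544 to 0.055). These are few molecules, and the bound covers counting error only, since copies made by PCR were not told apart by molecular identifiers. Among 20 receptor and signaling genes, 14 were higher and 0 lower (median 0.75, against 0.05 over all genes). Irf7, the transcription factor that amplifies interferon alpha production (chromosome 7, 141263183 to 141266499), stood at 1377, 1416 and 1190.2 CPM after MC38 supernatant and 82.9, 87 and 80.7 CPM after LLC supernatant. The 4 control cultures had 117, 89.9, 117 and 120.3 CPM, so the LLC group lay a little below the control level while the MC38 group lay above both (log2 difference 3.99 ± 0.12, adjusted p = 2.16e-08).

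Usp18, a brake on interferon receptor signaling, was at 197, 197 and 172 CPM after MC38 supernatant and 27.4, 26.6 and 26.1 CPM after LLC supernatant, a difference of 2.82 ± 0.11. Stat2, a part of the factor that binds the ISRE, differed by 1.56 ± 0.08. Of the interferon receptor chains, Ifnar2 and Ifngr2 were higher, at 0.26 ± 0.09 (adjusted p = 0.0471) and 0.37 ± 0.09 (adjusted p = 0.0094). The call of Ifnar2 was lost without MC38 replicate 1 or 2, any 1 LLC library or control replicate 3 or 4 (adjusted p = 0.0535 to 0.179) and under 2 other scalings, and that of Ifngr2 without MC38 replicate 2 or LLC replicate 1 or 3 (adjusted p = 0.0515 to 0.0554). Their partners were among the 6 members not called, Ifnar1 at -0.16 ± 0.10 (adjusted p = 0.223) and Ifngr1 at -0.24 ± 0.10 (adjusted p = 0.0892). Ifngr1 was called lower without control replicate 2 (adjusted p = 0.00728), the library with muscle transcripts.

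Sensors of nucleic acid were higher for 18 of 20 tested and lower for 1 (median 1.66). Zbp1, a sensor of Z-form nucleic acid, was at 263, 274 and 247 CPM after MC38 supernatant and 34.3, 32.3 and 32.7 CPM after LLC supernatant, with 62.6 to 75.4 CPM in control cultures. The LLC group lay below the controls and the MC38 group above them (log2 difference 2.98 ± 0.08, adjusted p = 8.44e-09). Ddx58 and Ifih1, which encode the cytosolic RNA sensors RIG-I and MDA5, were higher by 1.79 ± 0.08 and 1.86 ± 0.11. Tlr9, the endosomal DNA receptor, stood at 106, 117 and 92.1 CPM after MC38 supernatant and 18.9, 22.4 and 19.9 CPM after LLC supernatant. Its control level of 80.2 to 93.3 CPM overlapped the MC38 group, so for Tlr9 the LLC libraries were the ones set apart (log2 difference 2.36 ± 0.11, adjusted p = 1.76e-07). Mavs, the adaptor below RIG-I and MDA5, was the member called lower, by 0.23 on the log2 scale, a call lost without any 1 MC38 library, any 1 LLC library or control replicate 1, 3 or 4 (adjusted p = 0.0568 to 0.17).

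Antiviral effectors gave 44 higher and 1 lower of 46 tested (median 2.21), and the same counts held without MC38 supernatant replicate 3, at 44 and 1. Their median against control cultures was 2.05 after MC38 and 0.16 after LLC supernatant. Isg15, a ubiquitin-like modifier, was at 251, 265 and 232 CPM after MC38 supernatant and 24, 19 and 21.2 CPM after LLC supernatant, and at 8.86 to 12.2 CPM in control cultures (log2 difference 3.55 ± 0.13, adjusted p = 5.4e-08). Oasl1, which restrains Irf7 translation, rose from 10.7 to 11.6 CPM after LLC to 269 to 301 CPM after MC38 supernatant (log2 difference 4.67 ± 0.15). Slfn4, a Schlafen family gene of myeloid cells, was at 2329, 2207 and 1677 CPM after MC38 supernatant and 76.1, 81 and 69.1 CPM after LLC supernatant. The MC38 and LLC libraries did not overlap for these 3 genes, as for 60.2% of all genes tested. Ifit1, whose product binds RNA that lacks host cap marks, differed by 3.24 ± 0.10. Ifitm2, a membrane protein that blocks virus entry, was the 1 member called lower, at -0.38 ± 0.08 (adjusted p = 0.00498), while its relative Ifitm3 was higher by 0.77.

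The promoter windows of these genes are shown because the ISRE is the element through which interferon signaling is known to act, and they let its letters be seen beside the values. The windows run from 250 bases before to 50 after the start in RefSeq on GRCm38.p6, and 10049 of the 12603 genes tested had 1 or more, counted separately where a gene has several. Each line gives 120 bases, 5′ to 3′ on the gene's strand, which for Isg15 and Gbp2 end at the base before the start, for Ifit3 run from 180 to 61 bases before it and for Cxcl10 from 250 to 131 bases before it, with matches to GAAANNGAA on either strand in capitals.
Isg15 (chr4:156200819-156200938, minus strand): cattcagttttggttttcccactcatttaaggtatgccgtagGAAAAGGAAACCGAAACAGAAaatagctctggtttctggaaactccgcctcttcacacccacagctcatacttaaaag
Ifit3 (chr19:34583349-34583468, plus strand): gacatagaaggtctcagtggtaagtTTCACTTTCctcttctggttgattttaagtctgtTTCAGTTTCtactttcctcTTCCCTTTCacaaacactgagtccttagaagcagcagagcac
Gbp2 (chr3:142620543-142620662, plus strand): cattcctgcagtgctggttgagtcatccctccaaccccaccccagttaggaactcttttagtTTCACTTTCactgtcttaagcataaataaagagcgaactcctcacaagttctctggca
Cxcl10 (chr5:92349020-92349139, minus strand): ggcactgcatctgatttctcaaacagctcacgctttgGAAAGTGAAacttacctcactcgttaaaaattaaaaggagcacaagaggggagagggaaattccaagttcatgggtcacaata
Isg15 and Ifit3 held 3 matches each, of which those of Isg15 overlap one another, and Gbp2 and Cxcl10 held 1. A match stood in 950 of 12718 windows of genes tested (7.47%), in 306 of 2764 windows of genes called higher (11.07%) and in 164 of 2389 of those called lower (6.87%). Among genes called and over 2-fold higher it stood in 136 of 701 windows (19.4%). Antiviral effectors had it in 23 of 50 windows and interferon-inducible GTPases in 9 of 11. MHC class I and peptide loading genes had it in 5 of 22 and the Ly6 family in 0 of 7, and both lists were mostly higher. The 7 Ly6 windows covered only 4 of the 14 genes listed. Ly6a and Ly6e had none, so most of that family was not searched. Ribosomal proteins, a list that was lower after MC38 supernatant, had it in 13 of 64 windows (20.31%). The letters of the interferon gamma activated site (GAS), TTCNNNGAA, stood in 6 of the 11 GTPase windows, in 8 of the 50 antiviral windows and in 885 of 12718 windows of genes tested (6.96%). The printed stretches each held an ISRE match, so they do not show how often a match is present. A match is a description of letters, and it shows neither binding nor a cause.

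**Figure D2:**
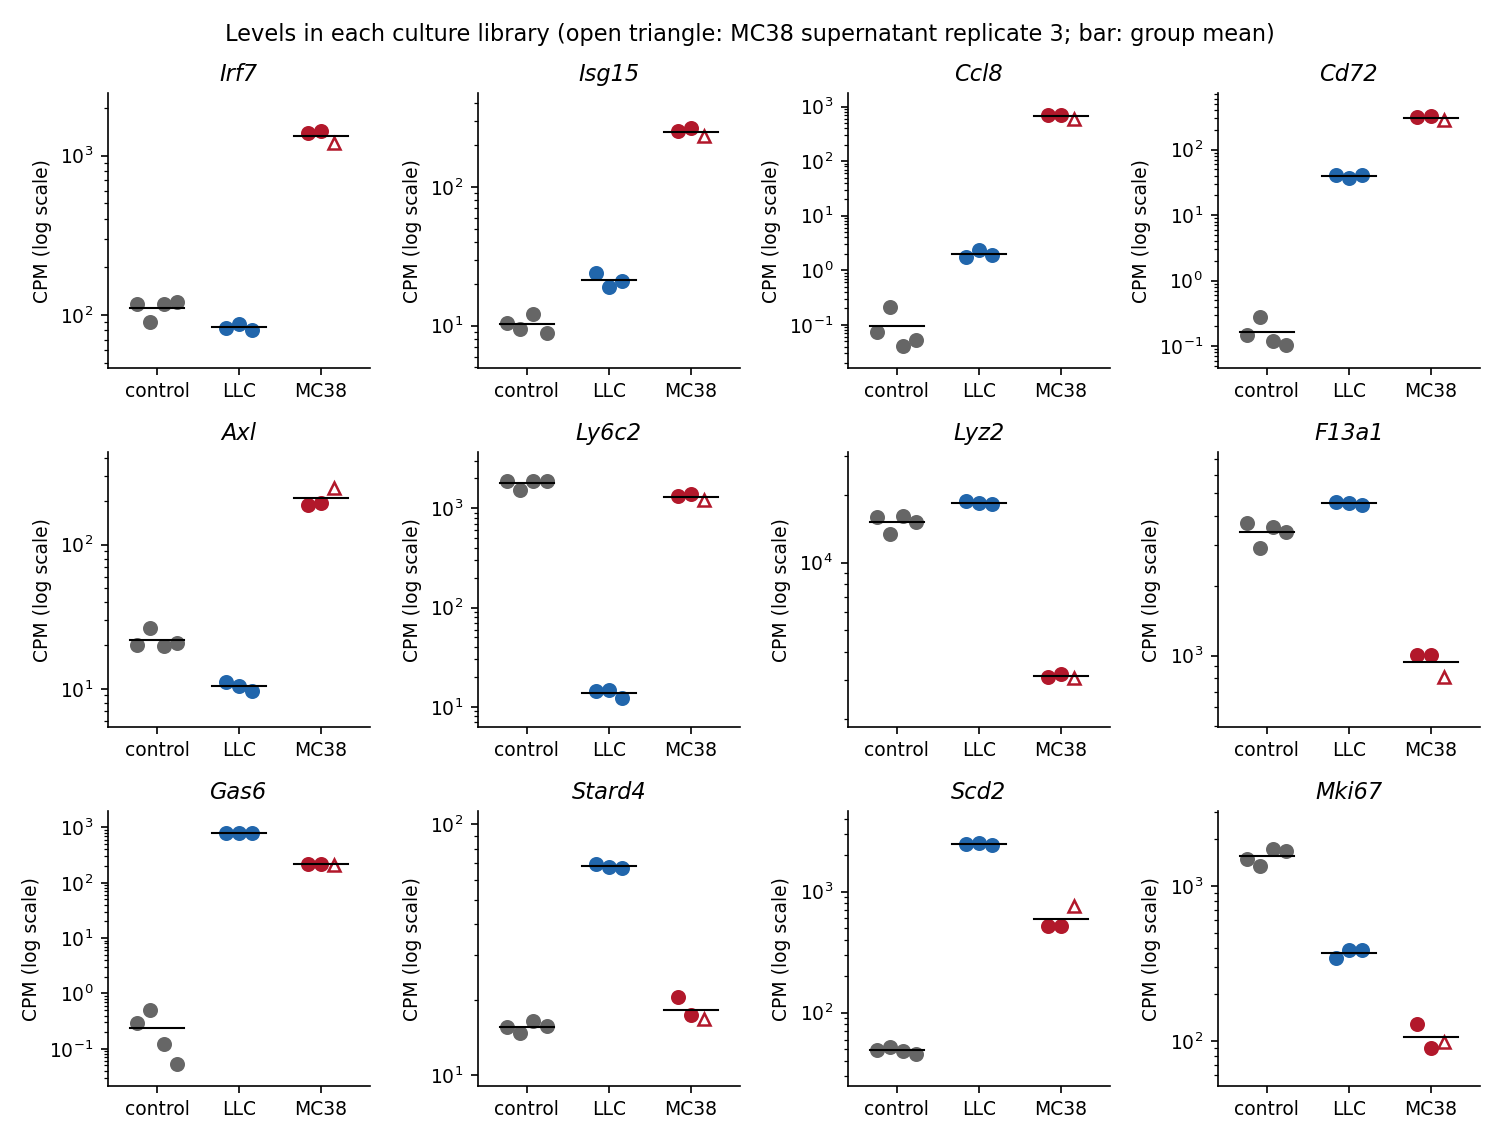
Level in CPM (vertical axes, log scale) of 12 genes in each of the 10 culture libraries, by group on the horizontal axis; filled circles are single libraries, open triangles mark MC38 supernatant replicate 3 and bars mark group means. Irf7, Isg15, Cd72 and Ccl8 are highest after MC38 supernatant, Ly6c2 is lowest after LLC supernatant, and Lyz2, F13a1, Stard4, Scd2 and Gas6 are higher after LLC than after MC38 supernatant.

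Interferon-inducible GTPases, which attack vacuoles that hold microbes, were higher for 15 of 16 tested (median 2.12) and lower for 0. Tgtp2 stood at 129.8, 124 and 119.7 CPM after MC38 supernatant and 5.97, 6.41 and 5.55 CPM after LLC supernatant, with 8.55 to 11.6 CPM in control cultures (log2 difference 4.38 ± 0.12, adjusted p = 8.5e-09). It shares reads with its near copy Tgtp1, so the split between them is uncertain. Igtp, Irgm1 and Ifi47 differed by 2.43 ± 0.10, 1.99 ± 0.09 and 2.15 ± 0.10. The LLC libraries overlapped the controls for Igtp and Irgm1 and lay below them for Ifi47, with Igtp at 24.4 to 26.4 CPM after LLC supernatant and 25.2 to 31 CPM in control cultures. The member that was not called, Gbp8, was at 3.17 to 3.48 CPM after MC38 and 1.92 to 2.42 CPM after LLC supernatant (log2 difference 0.62 ± 0.55, adjusted p = 0.41).

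Genes of class I antigen presentation, which load peptides for CD8 T cells, moved the same way. Of 24 tested, 21 were higher and 1 lower (median 1.21). H2-Q4, a nonclassical class I gene, stood at 332, 323 and 259 CPM after MC38 supernatant and 59.9, 59.9 and 55.6 CPM after LLC supernatant (log2 difference 2.38 ± 0.14, adjusted p = 9.69e-07). H2-T24 differed by 1.78 ± 0.08. H2-Q6 and H2-Q7 differed by 6.33 ± 0.25 and 5.57 ± 0.29, but the H2-Q genes are close copies and their split is uncertain. The member called lower was Canx, calnexin, a chaperone of the endoplasmic reticulum, at -0.27 ± 0.09 (adjusted p = 0.0402), a call lost without MC38 replicate 1 or 2, any 1 LLC library or control replicate 1, 3 or 4 (adjusted p = 0.0527 to 0.113). Proteasome subunits outside the immunoproteasome showed a smaller shift, with 22 of 31 higher, 1 lower and a median of 0.35. Psmc5, an ATPase of the regulatory particle, was at 114, 116 and 117 CPM after MC38 supernatant and 63.3, 65.4 and 64.1 CPM after LLC supernatant (log2 difference 0.84 ± 0.05), and Psmd8 was called lower (log2 difference -0.72 ± 0.06).

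Class II genes present peptides to CD4 T cells. Cd74, the invariant chain, stood at 111, 124 and 107 CPM after MC38 supernatant and 28.7, 32.4 and 26.1 CPM after LLC supernatant, and at 71.5 to 84.3 CPM in control cultures (log2 difference 1.98 ± 0.10, adjusted p = 3.5e-07). H2-Eb1 had 9.46, 10.4 and 10.4 CPM after MC38 and 1.34, 2.06 and 1.15 CPM after LLC supernatant (log2 difference 2.73 ± 0.24). The LLC libraries were below the controls for both genes. Of 10 members, 7 were higher and 1 lower, the latter being H2-Ob at -1.26 ± 0.41 (adjusted p = 0.0324), which was lost without MC38 replicate 1 or 2 or any 1 LLC library (adjusted p = 0.0512 to 0.157). Costimulatory and checkpoint genes, a list of ligands that also holds receptors such as Cd40, Cd200r1 and Sirpa, were higher for 12 and lower for 4 of 21.

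Cd72, a C-type lectin that inhibits B cell receptor signaling, had the smallest adjusted p of that list, at 319.6, 322 and 286 CPM after MC38 supernatant and 41.6, 36.8 and 41.6 CPM after LLC supernatant and at 0.146, 0.283, 0.121 and 0.105 CPM in the 4 control cultures. Both supernatant groups thus lay above the controls, and the MC38 group was 7.73-fold above the LLC group in mean CPM (log2 difference 2.95 ± 0.10, adjusted p = 4.23e-08). Tnfsf10, the death ligand TRAIL, was higher at 2.57 ± 0.20, and Lgals9, which encodes galectin 9, at 0.84 ± 0.08. Cd274, which encodes the checkpoint ligand PD-L1, was at 174, 175 and 143 CPM after MC38 supernatant and 84.1, 87.7 and 86.7 CPM after LLC supernatant (log2 difference 0.93 ± 0.12, adjusted p = 0.000185), with 2.69 to 3.99 CPM in control cultures. The 4 members called lower were Vsir, the inhibitory ligand VISTA (log2 difference -0.55 ± 0.09), Cd40 (log2 difference -0.66 ± 0.12), Cd200r1 (log2 difference -0.34 ± 0.09) and Sirpa (log2 difference -0.26 ± 0.09). The call of Sirpa was lost without any 1 MC38 library, any 1 LLC library or control replicate 1, 3 or 4 (adjusted p = 0.0571 to 0.141) and that of Cd200r1 without any 1 LLC library (adjusted p = 0.063 to 0.0689).

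Classical monocyte genes were split, with 9 higher and 7 lower of 20. Plac8, a small cysteine-rich protein abundant in Ly6C+ monocytes, stood at 717, 768 and 626 CPM after MC38 supernatant and 10.4, 11.9 and 11 CPM after LLC supernatant, and at 849.9, 689, 858 and 848 CPM in control cultures (log2 difference 5.98 ± 0.13, adjusted p = 2.46e-09). Its MC38 libraries overlapped the controls, whereas the LLC libraries were far below both, the order also seen for Ly6c2. Ly6e, a Ly6 family gene that restrains coronavirus entry, was at 2524, 2642 and 2319 CPM after MC38 supernatant and 639.9, 637 and 617 CPM after LLC supernatant (log2 difference 1.98 ± 0.09). Chil3, the chitinase-like Ym1, was at 115, 123 and 98.8 CPM after MC38 supernatant and 23.4, 22.1 and 23.4 CPM after LLC supernatant, both well below the 3356 to 4203 CPM of control cultures (log2 difference 2.29 ± 0.11, adjusted p = 2.16e-07). Cd177, a neutrophil and monocyte surface protein, showed the same order at a lower level (log2 difference 3.04 ± 0.18), beside the 11 of 13 neutrophil and granule markers that were higher.

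Lyz2, lysozyme M, ran the other way. It stood at 18839, 18370.5 and 18317 CPM after LLC supernatant and 3087, 3198 and 3051 CPM after MC38 supernatant, and at 16002, 13413, 16147 and 15113 CPM in control cultures (log2 difference -2.57 ± 0.08, adjusted p = 2.48e-08). Here the MC38 libraries were the ones below the controls. F13a1, which encodes coagulation factor XIII, was at 4563, 4537 and 4433 CPM after LLC supernatant and 1003, 1002 and 809.9 CPM after MC38 supernatant, with 2899 to 3701 CPM in control cultures (log2 difference -2.27 ± 0.11, adjusted p = 2.98e-07). S100a4 and Mgst1 were lower after MC38 supernatant by 1.0 and 1.01 on the log2 scale. Of the 8 Ly6 family genes tested, 7 were higher, or 6 without MC38 supernatant replicate 3, and none was called lower in either fit. This count is no finding about the family as a whole. It includes Ly6a, by whose protein the gate chose the cells, and the near-identical copies Ly6c1 and Ly6c2.

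Nonclassical monocyte genes had 6 higher and 1 lower of 15. Itgal, the alpha chain of LFA-1, was at 41.3, 43 and 39.5 CPM after MC38 supernatant and 13.3, 15 and 12.9 CPM after LLC supernatant but at 433 to 499 CPM in control cultures (log2 difference 1.59 ± 0.08). Cd300e, an activating receptor, was at 5.21 to 5.74 CPM against 0.238 to 0.346 CPM (log2 difference 4.12 ± 0.63), and Fabp4, a fatty acid carrier, was lower (log2 difference -1.78 ± 0.26).

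Among chemokines that attract monocytes and T cells, 9 of 15 were higher and 1 lower. Ccl8, a ligand of several CC receptors (chromosome 11, 82115185 to 82116799), stood at 706, 709.6 and 604 CPM after MC38 supernatant and 1.77, 2.38 and 1.92 CPM after LLC supernatant, and at 0.0402 to 0.212 CPM in control cultures (log2 difference 8.37 ± 0.17, adjusted p = 2.46e-09). Ccl12, a ligand of CCR2, was at 426, 402 and 336 CPM after MC38 supernatant and 18.4, 17.7 and 19 CPM after LLC supernatant (log2 difference 4.40 ± 0.26). Ccl7 was at 1255, 1244 and 1061 CPM after MC38 supernatant and 256, 223 and 292 CPM after LLC supernatant (log2 difference 2.21 ± 0.14). All 3 genes were nearly silent in control cultures, present after LLC supernatant and higher after MC38 supernatant. Cxcl16, which binds CXCR6 on T cells, differed by 1.85 ± 0.11. Cxcl10, a CXCR3 ligand whose promoter is printed above, was at 13.2, 13.9 and 13.2 CPM after MC38 supernatant and 1.56, 0.792 and 0.769 CPM after LLC supernatant and at 6.65 to 8.16 CPM in control cultures (log2 difference 3.69 ± 0.26, adjusted p = 3.18e-06). Ccl6 was the member called lower, at 1678, 1616 and 1619.7 CPM after LLC supernatant and 967, 899 and 716 CPM after MC38 supernatant (log2 difference -0.93 ± 0.12).

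Among 6 neutrophil attracting and platelet chemokines, 1 was higher and 1 lower (16.7% each, against 21.6% higher and 18.5% lower over all genes tested). Cxcl3, a CXCR2 ligand, was at 233, 228 and 184 CPM after MC38 supernatant and 86, 82.8 and 94 CPM after LLC supernatant (log2 difference 1.30 ± 0.17, adjusted p = 0.000212). Ppbp, the platelet basic protein, was at 466, 451 and 448 CPM after LLC supernatant and 235, 220.4 and 193 CPM after MC38 supernatant (log2 difference -1.07 ± 0.09, adjusted p = 1.15e-05). Both were under 1 CPM in all 4 control cultures. Their relative Pf4, platelet factor 4, stood at 1893, 1994 and 1683 CPM after MC38 supernatant and 1748, 1776 and 1790.5 CPM after LLC supernatant and did not pass (log2 difference 0.07 ± 0.16, adjusted p = 0.776).

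Receptors for chemoattractants were higher for 14 and lower for 1 of 20. Ccr2, which brings monocytes out of the marrow, was at 760.0, 655 and 497 CPM after MC38 supernatant and 266, 258 and 261 CPM after LLC supernatant, and at 1118 to 1452 CPM in control cultures (log2 difference 1.29 ± 0.15, adjusted p = 8.77e-05). Cx3cr1, the fractalkine receptor, was at 28.6, 30.9 and 48.4 CPM after MC38 supernatant and 3.55, 3.84 and 3.50 CPM after LLC supernatant, and at 254 to 342 CPM in control cultures (log2 difference 3.31 ± 0.22). Ccr2 and Cx3cr1 were therefore below control levels in both groups and lowest after LLC supernatant. Ltb4r1, a leukotriene B4 receptor, and Gpr35 were higher by 1.41 and 1.04. Gpr183, an oxysterol receptor, was lower at -0.32 ± 0.11 (adjusted p = 0.0453), a call lost without any 1 MC38 library, any 1 LLC library or control replicate 1, 3 or 4 (adjusted p = 0.0518 to 0.165).

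**Figure D3:**
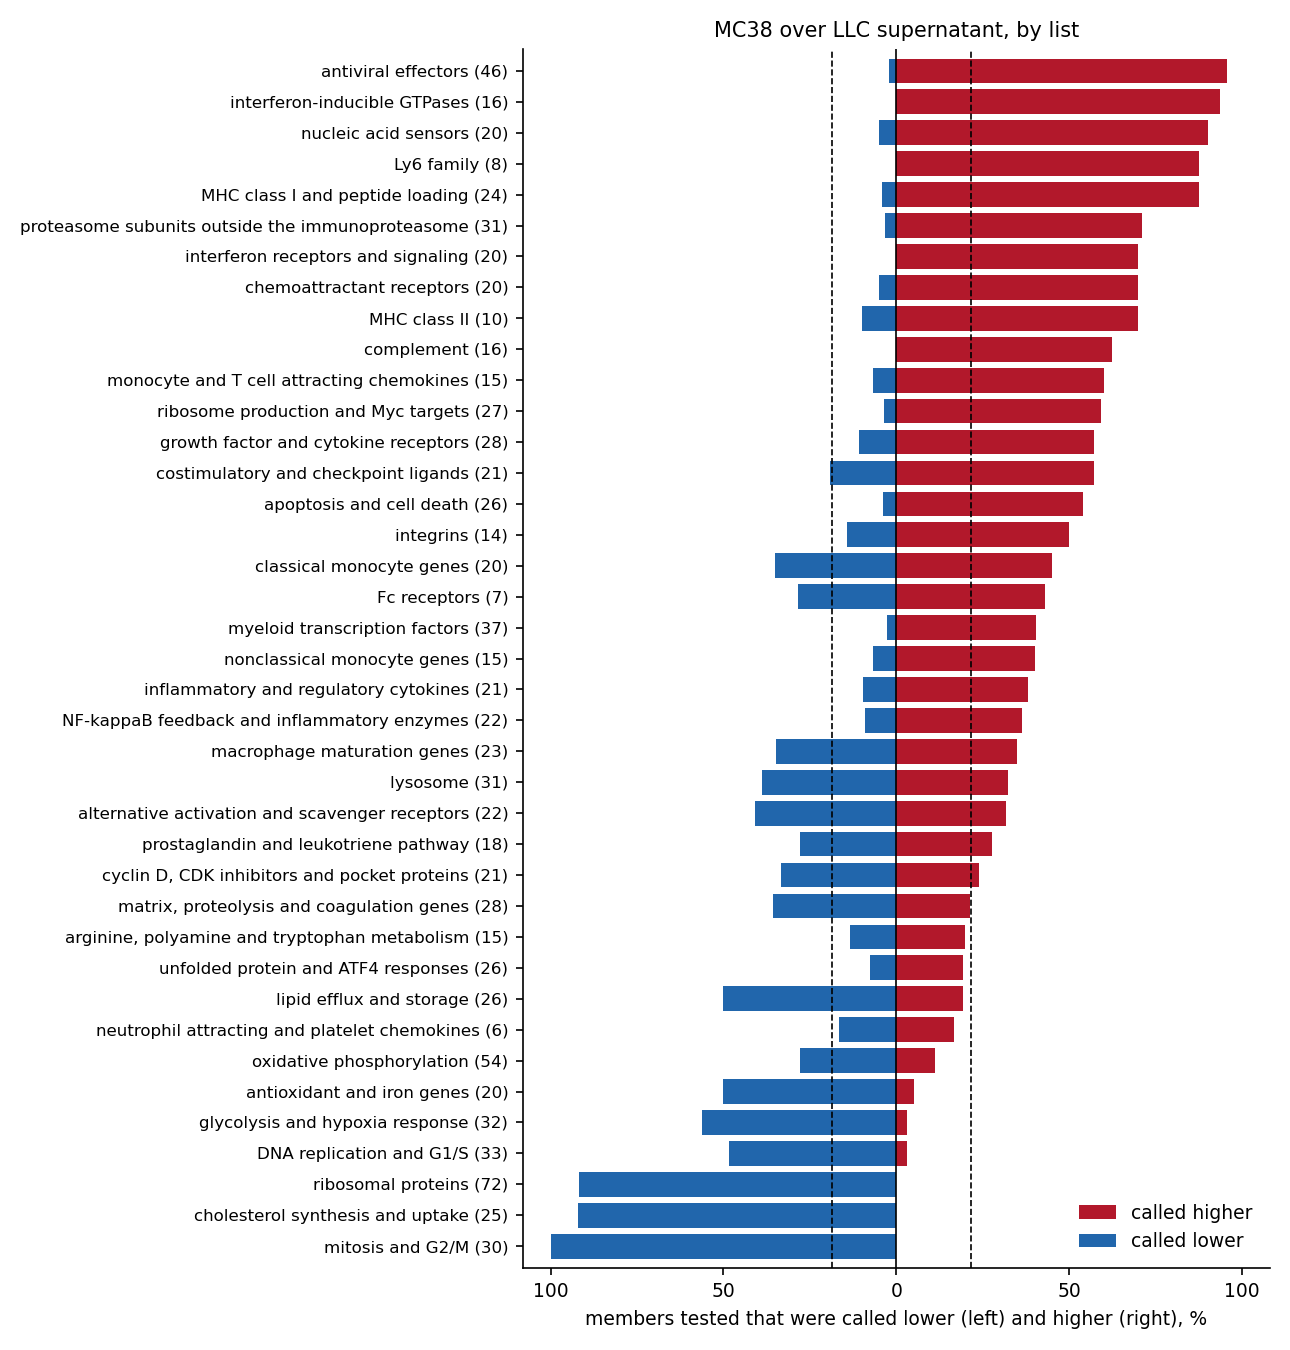
Share of tested members called higher (red, to the right) and lower (blue, to the left) after MC38 than after LLC supernatant for the function lists, in percent, with the number of members tested in brackets. Dashed lines mark the shares over all genes tested, 21.6% higher and 18.5% lower. Antiviral effectors reach 95.7% to the right, and mitosis, cholesterol and ribosomal protein genes 100%, 92.0% and 91.7% to the left. The Ly6 family bar includes Ly6a, by whose protein the gate chose the cells.

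Of 21 cytokine genes, 8 were higher (38.1%, against 21.6% of all genes tested) and 2 lower (9.5%, against 18.5%). Il18bp, a secreted decoy for interleukin 18, was at 42.2, 47.3 and 40.5 CPM after MC38 supernatant and 4.41, 4.0 and 4.10 CPM after LLC supernatant (log2 difference 3.38 ± 0.14, adjusted p = 8.85e-08). Il10, an anti-inflammatory cytokine, was at 12.4, 12.6 and 9.85 CPM after MC38 supernatant and 2.42, 2.10 and 1.92 CPM after LLC supernatant and had no count in control cultures (log2 difference 2.43 ± 0.21, adjusted p = 0.000126). Il1r2, a decoy receptor of interleukin 1, was higher (log2 difference 3.54 ± 0.33), and so was Il1b (log2 difference 2.35 ± 0.33), which was at 3.93 to 4.03 CPM. Il1a was lower (log2 difference -3.42 ± 0.62), at 0.0414 to 0.181 against 0.897 to 1.62 CPM, a call lost without LLC replicate 2 (adjusted p = 0.0544). The 3 libraries of each group did not overlap for any of these 5 genes, as for 60.2% of all genes tested. Ebi3, a subunit of interleukins 27 and 35, was also lower (log2 difference -0.74 ± 0.11).

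The NF-kappaB list had 8 higher and 2 lower of 22. Lcn2, an iron-scavenging lipocalin, was at 15.1, 14.8 and 19.7 CPM after MC38 supernatant and 0.952, 1.70 and 0.598 CPM after LLC supernatant, and at 65.5 to 84.7 CPM in control cultures (log2 difference 3.91 ± 0.29), and it is a neutrophil granule gene too. Bcl3, Nfkbie and Zc3h12a, which feed back on NF-kappaB, were higher by 1.07, 0.84 and 0.62. Tnfaip2 was lower at -1.01 ± 0.09 (adjusted p = 1.31e-05). In the prostaglandin and leukotriene pathway 5 were higher and 5 lower of 18 (27.8% each, against 21.6% higher and 18.5% lower over all genes tested). Alox5, the lipoxygenase that begins leukotriene synthesis, was at 47.7, 46.2 and 48 CPM after LLC supernatant and 9.96, 10.4 and 9.81 CPM after MC38 supernatant, and at 20.1 to 31 CPM in control cultures (log2 difference -2.23 ± 0.14, adjusted p = 1.6e-06). Lta4h, which makes leukotriene B4, was lower too (log2 difference -0.71 ± 0.07). The prostaglandin E2 receptor gene Ptger4 was higher (log2 difference 1.74 ± 0.11), at 13.9 to 14.4 CPM after MC38 supernatant and 3.93 to 4.54 CPM after LLC supernatant, both under the 23.8 to 30.6 CPM of control cultures.

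Complement genes were higher for 10 and lower for 0 of 16, the latter 1 without MC38 supernatant replicate 3. Cfb, factor B of the alternative pathway (chromosome 17, 34856374 to 34862514), stood at 232, 236 and 204 CPM after MC38 supernatant and 1.30, 0.713 and 1.62 CPM after LLC supernatant, and at 4.31 to 6.48 CPM in control cultures (log2 difference 7.54 ± 0.27, adjusted p = 7.92e-08). C3, the component that factor B acts with, was at 53.7, 58.1 and 65.7 CPM after MC38 supernatant and 22.7, 26.6 and 24.2 CPM after LLC supernatant (log2 difference 1.27 ± 0.10), but control cultures had 2591 to 3004 CPM. C3ar1 and C5ar2, receptors of the C3a and C5a fragments, were higher by 0.98 and 1.62. C1qb, a chain of C1q, stood at 699, 732 and 643 CPM after MC38 supernatant and 643, 662 and 655 CPM after LLC supernatant and did not pass (log2 difference 0.08 ± 0.16, adjusted p = 0.728), while control cultures were at or under 0.636 CPM.

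Proteases, inhibitors and coagulation genes held 4 of the 15 largest falls. Of 28 members, 6 were higher (21.4%, against 21.6% of all genes tested) and 10 lower (35.7%, against 18.5%). These counts were 7 and 12 without MC38 supernatant replicate 3. The number higher was 3 without any 1 LLC library. Serpinb10, a protease inhibitor of blood cells (chromosome 1, 107528994 to 107560742), was at 89.5, 91.9 and 84.8 CPM after LLC supernatant and 3.35, 3.03 and 1.99 CPM after MC38 supernatant, and at 84.9 to 120.3 CPM in control cultures (log2 difference -4.99 ± 0.20, adjusted p = 1.03e-07). F5, coagulation factor V, was at 24.7, 24.5 and 25.7 CPM after LLC supernatant and 3.49, 2.90 and 2.85 CPM after MC38 supernatant (log2 difference -3.02 ± 0.13, adjusted p = 1.37e-07). Mmp9, gelatinase B, was at 62, 59.7 and 67.2 CPM after LLC supernatant and 2.72, 4.16 and 3.39 CPM after MC38 supernatant, with control cultures under 1 CPM (log2 difference -4.20 ± 0.21, adjusted p = 3.3e-07). Serpinb2, an inhibitor of plasminogen activators, was near 0 in control cultures as well and stood at 43.6, 41.1 and 44.4 CPM after LLC supernatant and 3.49, 2.40 and 3.48 CPM after MC38 supernatant (log2 difference -3.78 ± 0.22). The 4 genes thus had 2 kinds of background: in control cultures Serpinb10 overlapped the LLC libraries and F5 lay above them at 95 to 126 CPM, while Mmp9 and Serpinb2 lay below both supernatant groups. Thbs1, thrombospondin 1, was higher, at 2775, 2932 and 2886 CPM after MC38 supernatant and 1476, 1543 and 1513 CPM after LLC supernatant (log2 difference 0.92 ± 0.09, adjusted p = 2.13e-05), and Thbd, thrombomodulin, by 1.77 ± 0.22.

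Of 23 markers of macrophage maturation, 22 were higher and 0 lower than in control cultures after MC38 supernatant and 21 higher and 2 lower after LLC supernatant, with medians of 4.37 after MC38 and 4.02 after LLC supernatant. Between the supernatants 8 were higher and 8 lower of 23, the latter 5 without LLC replicate 1. Adgre1, a surface marker of mature mouse macrophages, stood at 1019, 1052 and 889 CPM after MC38 supernatant and 972, 969.9 and 954 CPM after LLC supernatant and did not differ detectably (log2 difference 0.03 ± 0.09, adjusted p = 0.809). Axl and Gas6, a receptor tyrosine kinase for dying cells and its ligand, went in opposite directions. Axl was at 189.7, 194 and 247 CPM after MC38 supernatant and 11.2, 10.5 and 9.65 CPM after LLC supernatant, and at 19.9 to 26.4 CPM in control cultures (log2 difference 4.33 ± 0.15, adjusted p = 4.03e-08). Gas6 was at 795, 799 and 792 CPM after LLC supernatant and 221, 218 and 211 CPM after MC38 supernatant, and under 1 CPM in control cultures (log2 difference -1.88 ± 0.15, adjusted p = 9.24e-06). Among the lysosomal proteases Ctsl and Lgmn were higher (1.14 ± 0.09 and 0.66 ± 0.07) and Ctsd was lower (log2 difference -0.47 ± 0.07). Cadm1, an adhesion molecule, was at 12.7 to 20.4 against 72.1 to 74.2 CPM (log2 difference -2.21 ± 0.29).

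Genes of alternative activation and scavenging were likewise divided, at 7 higher and 9 lower of 22. Arg1, arginase 1, was at 2699, 2690.4 and 2298 CPM after MC38 supernatant and 1421, 1441 and 1364 CPM after LLC supernatant and under 2 CPM in control cultures (log2 difference 0.86 ± 0.22, adjusted p = 0.0126), a call lost without any 1 LLC library (adjusted p = 0.0574 to 0.0652). Il4ra, the interleukin 4 receptor alpha chain, was at 781, 806 and 678 CPM after MC38 supernatant and 262, 265 and 262 CPM after LLC supernatant (log2 difference 1.52 ± 0.10). Cd36, a scavenger receptor, and Tgm2, a transglutaminase, were higher by 0.99 and 1.57. Stab1, stabilin 1, was at 4161, 4264 and 4134 CPM after LLC supernatant and 1339, 1404 and 1136 CPM after MC38 supernatant (log2 difference -1.69 ± 0.10, adjusted p = 1.12e-06). Gpnmb, a glycoprotein of lipid-laden macrophages, was at 15653, 15788 and 15332 CPM after LLC supernatant and 7274, 7481 and 6424 CPM after MC38 supernatant (log2 difference -1.14 ± 0.12). Fcna, ficolin A, was at 0.905 to 1.31 against 16.9 to 17.3 CPM (log2 difference -3.99 ± 0.31). The lipoprotein receptor Scarb1 was lower too (log2 difference -1.07 ± 0.09). The groups did not overlap for Stab1, Gpnmb or Scarb1, as for 60.2% of all genes tested. Of 7 Fc receptor genes, 3 were higher and 2 lower. Fcgr1, the high affinity IgG receptor, stood at 1331, 1351 and 1132 CPM after MC38 supernatant and 269, 251 and 251 CPM after LLC supernatant, and at 32.5 to 39.1 CPM in control cultures (log2 difference 2.31 ± 0.09, adjusted p = 8.85e-08), whereas Fcgr2b, the inhibitory receptor, was lower (log2 difference -0.81 ± 0.09).

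Receptors for growth factors and cytokines were higher for 16 and lower for 3 of 28. Flt1, a VEGF receptor, was at 21, 20.6 and 20.1 CPM after MC38 supernatant and 0.0865, 0.198 and 0.0854 CPM after LLC supernatant, and at 10.5 to 12.8 CPM in control cultures (log2 difference 7.30 ± 0.23, adjusted p = 2.48e-08). The MC38 libraries lay somewhat above the controls and the LLC libraries close to 0. Csf3r, the G-CSF receptor, and Csf2rb2, a chain of the interleukin 3 receptor, were higher by 0.85 and 0.65. The semaphorin and VEGF coreceptors Nrp1 and Nrp2 were lower, by 0.51 and 0.23, but Nrp1 was lost without MC38 replicate 2 or 3 or any 1 LLC library (adjusted p = 0.0554 to 0.0617) and Nrp2 without MC38 replicate 1 or 3 or any 1 LLC library (adjusted p = 0.0507 to 0.0817). Integrin genes gave 7 higher and 2 lower of 14, with Itgb3, the beta 3 chain, at 28.7, 29.3 and 27.4 CPM after LLC supernatant and 2.53, 2.80 and 8.56 CPM after MC38 supernatant (log2 difference -2.61 ± 0.40, adjusted p = 0.00112) and Itgav, its partner, higher (log2 difference 1.04 ± 0.09). Without MC38 supernatant replicate 3, the difference of Itgb3 was -3.41.

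Of 37 myeloid transcription factors 15 were higher and 1 lower, with 5 lower without control replicate 2 and 2 lower without MC38 supernatant replicate 3. Id1, an inhibitor of helix-loop-helix factors, was at 14.8, 13.8 and 15.6 CPM after MC38 supernatant and 1.34, 1.35 and 2.01 CPM after LLC supernatant, and at 11.9 to 20.7 CPM in control cultures (log2 difference 3.23 ± 0.26, adjusted p = 7.61e-06). Batf2, an interferon-responsive factor, was higher (log2 difference 1.97 ± 0.30), as were Mafk (log2 difference 0.75 ± 0.10) and Etv3 (log2 difference 0.44 ± 0.06). Klf4, a factor of monocyte development, was the member called lower (log2 difference -0.65 ± 0.20), at 17.4 to 20.5 and 23.5 to 39.8 CPM against 282 to 380.3 CPM in control cultures, a call lost without MC38 replicate 1 or 2 or LLC replicate 3 (adjusted p = 0.0888 to 0.102).

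Cholesterol genes were lower nearly throughout. Of 25 tested, 23 were lower after MC38 than after LLC supernatant and none was higher (median -1.0), and 22 were lower without MC38 supernatant replicate 3. Against control cultures 22 were higher after MC38 and 23 after LLC supernatant, with medians of 1.06 after MC38 and 2.07 after LLC supernatant. Over all genes tested 35.4% were higher after MC38 and 32.3% after LLC supernatant. Stard4, a carrier of cholesterol between membranes, was at 69.5, 67.8 and 66.7 CPM after LLC supernatant and 20.6, 17.4 and 16.8 CPM after MC38 supernatant, and at 15.5, 14.7, 16.5 and 15.7 CPM in control cultures (log2 difference -1.90 ± 0.09, adjusted p = 1.71e-07). Its MC38 libraries lay near the controls. Sqle, squalene epoxidase, was at 182, 182 and 179.5 CPM after LLC supernatant and 80.4, 73.3 and 81.3 CPM after MC38 supernatant, and at 10.3 to 12.1 CPM in control cultures (log2 difference -1.21 ± 0.07, adjusted p = 9.51e-07). Fdps, which makes farnesyl diphosphate, differed by -1.26 ± 0.06 and Insig1, which holds SREBP factors in the endoplasmic reticulum, by -1.38 ± 0.08. The 2 members that did not pass were Ebp (log2 difference -0.01 ± 0.11) and Scap (log2 difference 0.37 ± 0.20). In the promoter windows of the cholesterol list the sterol response element letters TCACNCCAC stood in 1 of 22 (144 of 12718, or 1.13%, over genes tested). These windows covered 18 of the 26 genes listed, and Stard4, Sqle and Fdps had none, so their promoters were not searched. The NF-Y letters CCAAT stood in 16 of 22, against 38.48% of windows of genes tested. Class I genes, a list that was higher after MC38 supernatant, also had them in 16 of 22 windows.

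Other lipid genes changed in both directions, with 13 lower and 5 higher of 26. Scd2, a desaturase that makes monounsaturated fatty acids, was at 2471, 2498 and 2404 CPM after LLC supernatant and 517, 517 and 754 CPM after MC38 supernatant (log2 difference -2.04 ± 0.14, adjusted p = 2.17e-06). Fasn, fatty acid synthase, was at 281, 284 and 272 CPM after LLC supernatant and 107, 108 and 149.9 CPM after MC38 supernatant (log2 difference -1.19 ± 0.12, adjusted p = 2.77e-05), and Lpcat3 and Fabp5 fell by 0.88 and 0.91. In the other direction Lipg, endothelial lipase, was at 32.7, 34.4 and 30.8 CPM after MC38 supernatant and 0.0433, 0.158 and 0.128 CPM after LLC supernatant, with control cultures under 1 CPM (log2 difference 8.13 ± 0.31, adjusted p = 6.69e-08). Ch25h, which makes 25-hydroxycholesterol and is itself interferon inducible, was at 6.47, 4.89 and 7.20 CPM after MC38 supernatant and 0.995, 0.594 and 0.470 CPM after LLC supernatant and had no count in control cultures (log2 difference 3.16 ± 0.39, adjusted p = 0.000663). Abcg1, an exporter of cholesterol, and Plin2, a lipid droplet coat protein, were higher by 0.52 and 0.53.

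**Figure D4:**
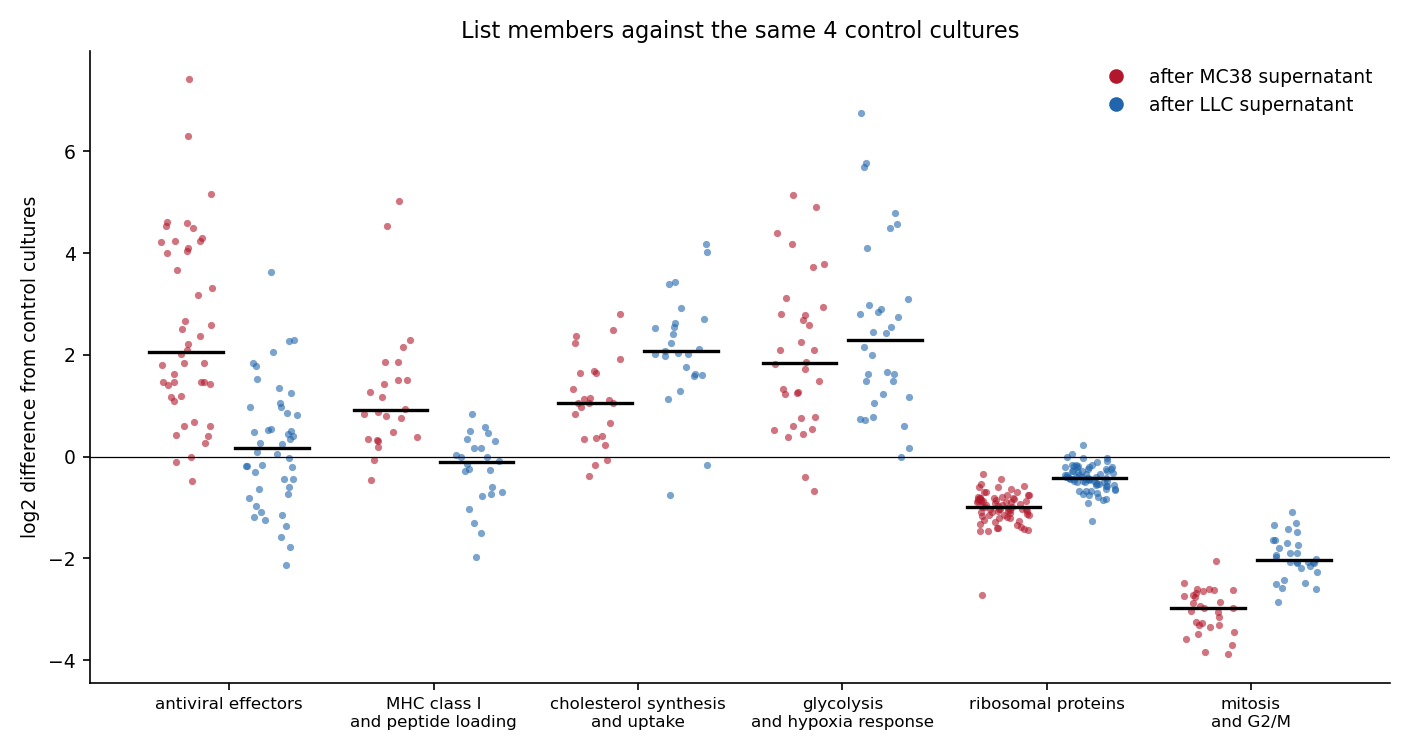
Log2 difference from control cultures (vertical axis) of the tested members of 6 lists, after MC38 supernatant (red) and after LLC supernatant (blue), with a black bar at each median. Both sets of points use the same 4 control libraries. The MC38 points lie higher than the LLC points for antiviral effectors and class I genes, and lower for cholesterol, glycolysis, ribosomal protein and mitosis genes.

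Of the glycolysis and hypoxia genes, 29 after MC38 and 30 after LLC supernatant were higher than in control cultures (medians 1.83 and 2.29). Over all genes tested these shares were 35.4% and 32.3%. Between the supernatants 18 of 32 were lower after MC38 and 1 higher (median -0.35). Egln3, a prolyl hydroxylase that marks HIF proteins for destruction and is a HIF target, was at 240.3, 244 and 241 CPM after LLC supernatant and 86, 79.7 and 71 CPM after MC38 supernatant (log2 difference -1.62 ± 0.13, adjusted p = 9.14e-06). Ndrg1, a stress gene, was at 368, 364 and 348 CPM after LLC supernatant and 128, 132 and 146 CPM after MC38 supernatant, on either side of the 210.1 to 222 CPM of control cultures (log2 difference -1.41 ± 0.06, adjusted p = 1.38e-07). Aldoa and Gpi1, glycolytic enzymes, fell by 0.59 and 0.78. Pfkfb3, which drives glycolytic flux, was the member called higher (log2 difference 0.26 ± 0.07, adjusted p = 0.0104), a call lost without MC38 replicate 2 or LLC replicate 1 (adjusted p = 0.0538 to 0.0554). Vegfa, the angiogenic factor, was at 244, 257 and 243 CPM after LLC supernatant and 64, 70.5 and 73.9 CPM after MC38 supernatant, without overlap, and was not called (log2 difference -1.84 ± 0.73, adjusted p = 0.0808). The 4 control cultures had 3.55, 26.6, 4.06 and 3.78 CPM of Vegfa, and it passed without control replicate 2 (adjusted p = 3.05e-08), the library with muscle transcripts.

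Ribosomal proteins were lower for 66 of 72 and higher for none (median -0.57). Against control cultures 69 were lower after MC38 and 59 after LLC supernatant, with medians of -0.99 after MC38 and -0.42 after LLC supernatant. Over all genes tested 32.5% were lower after MC38 and 36.1% after LLC supernatant. Rpl10 was at 1203, 1163 and 1194 CPM after LLC supernatant and 625, 649.8 and 655 CPM after MC38 supernatant, with 1215 to 1317 CPM in control cultures (log2 difference -0.88 ± 0.05, adjusted p = 1.39e-06). Rpl5, Rpl10a and Rps25 fell by 0.83, 1.04 and 0.61. The differences were even but small, and tested against a 1.5-fold change 7 of them passed. Many ribosomal protein genes have processed copies that may share their reads, so single members are uncertain. Rpl30 stood at 2.13, 217 and 1.70 CPM in the 3 MC38 libraries, and the part of read sharing in this was not tested. Genes of ribosome production gave 16 higher and 1 lower of 27 (median 0.52). Nop58 and Nop56, core proteins of small nucleolar particles, were higher by 1.14 and 0.72, and Dkc1, dyskerin, by 1.0, while Npm1, nucleophosmin, was lower (log2 difference -0.38 ± 0.11), a call lost without MC38 replicate 1 or 2 or any 1 LLC library (adjusted p = 0.0523 to 0.0697).

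Oxidative phosphorylation subunits were mostly not called (33 of 54, median -0.09). Of the rest, 6 were higher (11.1% of the list, against 21.6% of all genes tested) and 15 lower (27.8%, against 18.5%). The number lower was 5 to 6 without MC38 replicate 1 or 2 or any 1 LLC library, and the number higher 2 to 3 without MC38 replicate 2 or 3 or any 1 LLC library. Cycs, cytochrome c, was at 136, 138 and 133 CPM after MC38 supernatant and 67.1, 69.3 and 67.6 CPM after LLC supernatant (log2 difference 0.99 ± 0.07, adjusted p = 3.61e-06), and Uqcrfs1 and Cox7b, subunits of complexes III and IV, fell by 0.59 and 0.49.

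Mitosis genes were lower for 30 of 30 (median -1.03), and for 30 without MC38 supernatant replicate 3. Untreated cells held the highest levels, and the medians against control cultures were -2.98 after MC38 and -2.04 after LLC supernatant. Mki67, the proliferation antigen Ki-67, was at 343, 386 and 383 CPM after LLC supernatant and 129, 89.7 and 98.3 CPM after MC38 supernatant, and at 1478, 1334, 1731 and 1681 CPM in control cultures (log2 difference -1.81 ± 0.14, adjusted p = 7.45e-06). Ccnb2, a mitotic cyclin, was at 33, 36.9 and 38.1 CPM after LLC supernatant and 15.5, 15.2 and 15.6 CPM after MC38 supernatant (log2 difference -1.22 ± 0.10, adjusted p = 1.18e-05). Bub1b, a spindle checkpoint kinase, and Kif23, a motor of cell division, fell by 1.09 and 1.38. The 3 groups kept the same order, control above LLC above MC38, for each of these 4 genes without overlap.

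Mitosis promoters are known to carry the cell cycle homology region (CHR), TTTGAA, and the NF-Y element, CCAAT, and 2 members that fell are printed to show how the letters sit. They follow the format above, with matches on either strand in capitals (on the other strand TTCAAA and ATTGG).
Cdk1 (chr10:69352913-69353032, minus strand): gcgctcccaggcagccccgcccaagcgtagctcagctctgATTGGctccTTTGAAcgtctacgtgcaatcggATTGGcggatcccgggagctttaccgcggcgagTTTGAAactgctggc
Ccnb2 (chr9:70421555-70421674, minus strand): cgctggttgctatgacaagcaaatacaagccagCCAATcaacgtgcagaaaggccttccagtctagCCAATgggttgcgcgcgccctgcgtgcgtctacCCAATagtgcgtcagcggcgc
Cdk1, the kinase that starts mitosis, held 2 matches of each kind in this stretch and fell by 1.01 on the log2 scale, and Ccnb2 held 3 NF-Y matches and no CHR there. The whole windows held 5 matches each, and that of Ccnb2 had CHR letters outside the printed stretch. CHR letters stood in 20 of 26 windows of the mitosis list and in 1596 of 12718 windows of genes tested (12.55%). NF-Y letters stood in 21 of 26 and in 4894 of 12718 (38.48%). The E2F letters TTTCCCGC stood in none of the mitosis windows and in 6 of 32 windows of the replication list described next, against 259 of 12718 (2.04%).

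Genes of DNA replication and the G1/S step were less uniform, with 16 lower and 1 higher of 33, the former 10 without LLC replicate 1. Pole and Lig1, a replicative polymerase and a DNA ligase, fell by 0.66 and 0.68, and Tyms, thymidylate synthase, was higher by 0.24, a call lost without MC38 replicate 1 or 2 or any 1 LLC library (adjusted p = 0.0699 to 0.147) and under 2 other scalings. Pcna, the sliding clamp, stood at 254, 241 and 218 CPM after MC38 supernatant and 264, 255 and 252 CPM after LLC supernatant (log2 difference -0.11 ± 0.09, adjusted p = 0.372). The cyclin-dependent kinase inhibitor Cdkn1a, p21, was at 403, 414 and 431 CPM after MC38 supernatant and 103, 104.8 and 107 CPM after LLC supernatant, and at 22.4 to 32 CPM in control cultures (log2 difference 1.99 ± 0.12, adjusted p = 1.3e-06). Cdkn2c, the inhibitor p18, was lower (log2 difference -1.47 ± 0.12). Ccnd2, cyclin D2, was at 83.9, 89.2 and 378 CPM after MC38 supernatant and 10.8, 9.70 and 10.4 CPM after LLC supernatant, and its difference of 4.16 ± 0.62 was 3.07 without MC38 supernatant replicate 3.

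Cell death genes were higher for 14 and lower for 1 of 26, the former 9 without LLC replicate 3 and the latter 2 without MC38 supernatant replicate 3. Casp4, an inflammatory caspase, was at 44.4, 42.4 and 35.2 CPM after MC38 supernatant and 13.8, 12.2 and 14.9 CPM after LLC supernatant (log2 difference 1.58 ± 0.12, adjusted p = 7.48e-06). Bcl2l11, the death protein BIM, was at 161, 168 and 141 CPM after MC38 supernatant and 77.6, 76.7 and 77.2 CPM after LLC supernatant (log2 difference 1.02 ± 0.08, adjusted p = 7.11e-06). Mlkl, the pore former of necroptosis, and Bax were higher by 0.84 and 0.76, and the survival gene Bcl2 was lower (log2 difference -0.82 ± 0.12).

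Iron and antioxidant genes were lower for 10 and higher for 1 of 20. Slc40a1, the iron exporter ferroportin, was at 47.9, 44.4 and 44.8 CPM after LLC supernatant and 9.82, 9.0 and 9.06 CPM after MC38 supernatant, and at 3.75 to 5.07 CPM in control cultures (log2 difference -2.30 ± 0.11, adjusted p = 2.88e-07). Ftl1, ferritin light chain, fell by 0.74, and Tfrc, the transferrin receptor that imports iron, was higher (log2 difference 0.93 ± 0.29, adjusted p = 0.0322), a call lost without MC38 replicate 1 or 2 or any 1 LLC library (adjusted p = 0.0684 to 0.103). In arginine and tryptophan metabolism 3 genes were higher, or 7 without control replicate 2, and 2 lower of 15, among them Kmo (log2 difference 1.71 ± 0.22) and Kynu (log2 difference 2.25 ± 0.40) of the kynurenine pathway, both under 4 CPM. Lysosomal genes were split, with 10 higher and 12 lower of 31. The cysteine proteases Ctsh, Ctsc and Ctss were higher by 1.13, 1.10 and 0.99, and the hydrolases Ctsa and Hexa fell by 0.72 and 0.72. Stress response genes of the unfolded protein and ATF4 pathways had 5 higher (19.2%, against 21.6% of all genes tested) and 2 lower (7.7%, against 18.5%) of 26. These counts were 8 and 6 without control replicate 2. Sesn2 was higher (log2 difference 0.74 ± 0.11) and Herpud1 lower (log2 difference -0.96 ± 0.14).

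The 15 largest rises included genes outside these lists. Spon1, spondin 1, was at 41, 40.7 and 38.6 CPM after MC38 supernatant and had no count after LLC supernatant, which makes it at least 959-fold higher against a floor of 3 counts over the LLC group (adjusted p = 1.51e-07). Apol9b was at 24.2, 27.1 and 24.4 CPM and also at 0, a rise of at least 603-fold, and this value is uncertain because reads are shared with the copy Apol9a. Ifit1bl1, of the Ifit family, was at 131, 125 and 103 CPM after MC38 supernatant and 0.779, 0.634 and 0.897 CPM after LLC supernatant (log2 difference 7.28 ± 0.17, adjusted p = 2.48e-09), and Olfml3, a secreted matrix protein, at 29.4, 32.5 and 41.7 CPM after MC38 supernatant and 0.303, 0.317 and 0.0854 CPM after LLC supernatant (log2 difference 7.16 ± 0.42, adjusted p = 1.39e-06). Pmepa1 and Apod passed the rule for naming and were far higher in replicate 3 than in the other 2 MC38 libraries. Pmepa1, a TGF-beta target, was at 4.84, 4.89 and 59 CPM, and its difference of 7.80 was 5.56 without it and 8.41 without LLC replicate 3. Apod, a lipid carrier, was at 2.58, 1.99 and 71.2 CPM against 3 counts over the LLC libraries, a ratio of 638 with a 95% counting interval of 218 to 3095, and its fitted difference of 9.07 was 5.604 without replicate 3 and 9.86 without LLC replicate 2.

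Among the 15 largest falls, Hgsnat, a lysosomal acetyltransferase, was at 679, 678 and 654 CPM after LLC supernatant and 101, 104 and 103 CPM after MC38 supernatant, and at 141 to 178 CPM in control cultures (log2 difference -2.70 ± 0.09, adjusted p = 2.56e-08). Pomk, a kinase of the dystroglycan pathway, was at 246, 246 and 233 CPM after LLC supernatant and 33.8, 36.4 and 35 CPM after MC38 supernatant (log2 difference -2.79 ± 0.10, adjusted p = 4.23e-08). Fxyd2, a regulator of the sodium pump, was at 41.5, 42.2 and 41.7 CPM after LLC supernatant and 2.31, 2.26 and 2.85 CPM after MC38 supernatant and had no count in control cultures (log2 difference -4.07 ± 0.13, adjusted p = 8.65e-07). Hal, which breaks down histidine, was at 19, 19.4 and 21.5 CPM after LLC supernatant and 1.49, 1.67 and 1.28 CPM after MC38 supernatant (log2 difference -3.75 ± 0.13). Zan, Stac2, Smpd3, Rasgrp3, Rapsn and Tmod1 completed the set, with log2 differences of -4.97, -3.74, -3.69, -3.69, -2.78 and -2.71.

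The values of some members rested on MC38 supernatant replicate 3, and others were called only without it. In 255 genes it was at 10 CPM or more and over 5 times both other MC38 libraries, and 40 of these were called. Thy1, a fibroblast and T cell surface protein, was at 0.226, 0.0452 and 70.1 CPM across the MC38 libraries against 1 count over the LLC libraries, a ratio of 1785 with a 95% counting interval of 319.9 to 70544, which covers counting error and not the spread between libraries. Its fitted difference of 10.23 was 2.85 without replicate 3 and 10.82 and 12.04 without MC38 replicate 1 and LLC replicate 1. Id3, a relative of Id1, was at 9.28, 7.69 and 46.1 CPM, and its difference went from 4.85 to 3.54 without replicate 3. Sparc, a matrix protein, was at 0.498, 0.271 and 777 CPM and was called in neither fit (adjusted p = 0.0542 and adjusted p = 0.889). Of the 9 fibroblast markers that passed the filter, 5 were called higher with replicate 3 and 1 without it, and the call of Thy1 was lost without any 1 LLC library or control replicate 1, 3 or 4 (adjusted p = 0.0503 to 0.121).

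Among those called only without replicate 3, Cd81, a tetraspanin, stood at 19.1, 19.4 and 148 CPM after MC38 and 136, 136 and 138 CPM after LLC supernatant, and was called lower only in the fit without replicate 3 (log2 difference -2.83 ± 0.39, adjusted p = 0.00107) and not with it (log2 difference -1.13 ± 0.80, adjusted p = 0.305). Adam19, a membrane protease, was at 5.52, 5.34 and 37.4 and 20.4, 21.1 and 20.4 CPM and likewise passed without it (log2 difference -1.93 ± 0.08, adjusted p = 5.81e-08). Fn1, fibronectin, was at 200.3, 222 and 2736 and 329, 328 and 334 CPM, far under the 10054 to 11365 CPM of control cultures, and turned from 1.67 ± 0.93 (adjusted p = 0.195) to -0.64 ± 0.07 (adjusted p = 8.49e-05). Csf1, the macrophage growth factor, and Ptges, a prostaglandin E synthase, turned in the same way, from 0.32 and 1.64 to -0.70 and -1.85, and both were called lower without it (adjusted p = 0.00476 and adjusted p = 0.00161).

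**Figure D5:**
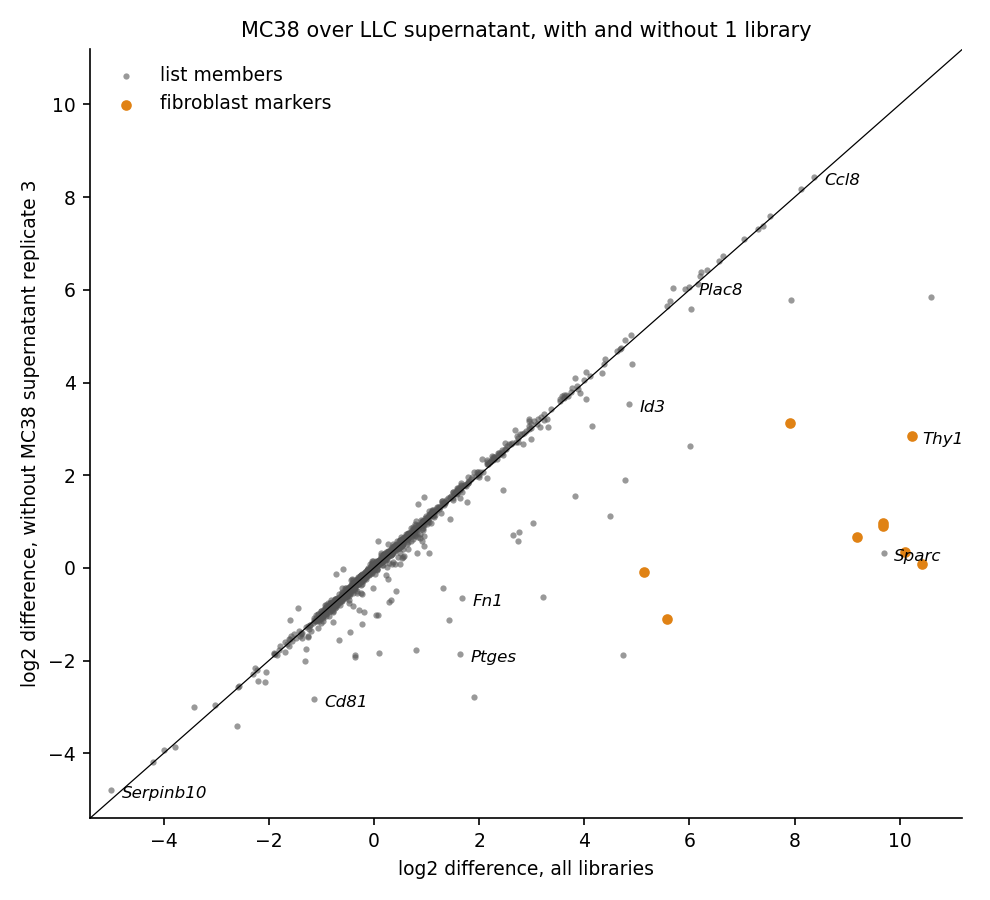
Log2 difference between MC38 and LLC supernatant with all libraries (horizontal axis) and without MC38 supernatant replicate 3 (vertical axis) for list members, with fibroblast markers in orange and the diagonal marking equal values. Members within 0.25 of the diagonal number 862 of 949, and Thy1, Sparc, Fn1, Ptges and Cd81 lie below it.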

How the data were processed

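Gene expression was measured by sequencing polyadenylated RNA (KAPA stranded mRNA-Seq, 100 ng input and 14 PCR cycles, per the labels' protocols). The authors deposited a table of expected counts per gene, which need not be whole (15.02% of culture values were not), and the submitters' processing notes name CASAVA 1.8.2 and GRCm38/mm10. The aligner, the counter and whether counting used strand are given in none of the sources used here, so overlapping genes on opposite strands may share counts. Expected counts were rounded, and 24375 of 24475 gene IDs matched RefSeq names. The 100 unmatched IDs held 1.258% of the culture counts and were kept in library sizes and tests. A single fit over the 10 culture libraries used edgeR 4.0.16 in R 4.3.3 (TMM scaling, filterByExpr, robust quasi-likelihood F-test, Benjamini-Hochberg adjustment, threshold 0.05). The same steps were run on simulated data, which gave every gene the same dispersion and made no library stand apart. The simulation therefore does not cover the libraries with foreign transcripts. CPM uses the TMM effective library size, the standard error was taken as the size of the log2 difference divided by the root of its F value, and coefficients of genes at 0 in 1 group depend on the prior count.

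The samples and the 40 function and 13 marker lists were chosen with earlier results of these data known. Genes were named by rule: the 15 largest rises and falls among protein-coding genes called with and without MC38 supernatant replicate 3, at a mean of 10 CPM or more in the higher group and with no overlap, and up to 4 members per list and direction with the smallest adjusted p, not all of which are reported here. Members that did not pass, Cd274, Cdk1, Cxcl10, Fn1, Gbp2, Id3, Ifit3, Ifitm3, Ifnar2, Ifngr2, Sparc, Vegfa and the genes called only without replicate 3 were chosen after their values were seen. Alternatives were RLE and upper quartile scaling, 2 filters, DESeq2 1.42.0, the 6 supernatant libraries alone, the replicate number as a block, each library left out, both libraries with foreign transcripts left out, a test against a 1.5-fold change, and unrounded counts.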

Additional observations from a re-analysis of the deposited data

Results flagged for a closer look

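The 4 control cultures were checked in 56 sets, the genes whose control levels are given and the summed marker lists. In 13 sets the gap of 1 library to the nearest other exceeded Dixon's 95% critical value. Chance gives about 1 in 20 for a single set, but these sets share the same 4 libraries, so 13 of 56 cannot be weighed against that rate. All 13 were control culture replicate 2. Foreign markers were high there: fibroblast markers summed to 337 CPM (16.6 to 19.6 CPM in the other 3 libraries), striated muscle markers to 252 CPM (1.77 to 3.25 CPM), epithelial markers to 88.4 CPM (0.161 to 0.732 CPM) and red cell markers to 21.6 CPM (2.01 to 3.20 CPM). Vegfa, at 26.6 CPM (3.55 to 4.06 CPM), and Axl, at 26.4 CPM (19.9 to 20.7 CPM), were also high in it. Monocyte genes were low in the same library, with Ly6c2 at 1520 CPM, Ccr2 at 1118 CPM, Plac8 at 689 CPM, Klf4 at 282 CPM, Irf7 at 89.9 CPM and Fcgr1 at 32.5 CPM, and neutrophil and granule markers summed to 2455 CPM (3123 to 3149 CPM in the others). The part of the foreign RNA in these lower values was not tested. The MC38 and LLC groups, with 3 libraries each, are too small for this check.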

How the results depend on the processing

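Of 5055 genes called between MC38 and LLC supernatant, 4635 were called again under RLE scaling and 4730 with DESeq2, and the share of calls that were higher went from 53.9% to 46.2% and 46.1%, with a shift of the median of all genes by -0.05. Tested against a 1.5-fold change, 1143 remained (623 higher and 520 lower), with 4534 for MC38 supernatant versus control culture and 4676 for LLC supernatant versus control culture. Leaving out both libraries with foreign transcripts gave 3849 higher and 3575 lower. Leaving out 1 library in turn gave 3499 (without LLC replicate 2) to 6285 calls (without control replicate 2), 1823 to 3419 higher and 1651 to 2866 lower. Same-numbered MC38 and LLC libraries did not deviate together (r of -0.07, 0.03 and -0.07 across genes). These are deviations from means of few libraries, 1 of them with connective-tissue transcripts, so they cannot exclude pairing. The main fit did not take the numbers as pairs, and a fit with the replicate block called 4235 genes (2223 higher and 2012 lower). Of 255 genes called among those picked by rule or named, 168 kept their direction and threshold under every alternative run, and none reversed. Of 106 list counts, 41 stayed within 1.5 times.

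Genes that reversed were not called with all libraries. Leaving out 1 library at a time, log2 differences ran from -0.64 to 2.17 for Fn1, -1.85 to 2.19 for Ptges, -0.70 to 0.65 for Csf1, -1.93 to 0.0572 for Adam19, -0.0282 to 0.0935 for C5ar1, -0.0173 to 0.102 for Adgre1 and -0.0371 to 0.0378 for Ebp. For the first 4 the lowest value was the fit without MC38 supernatant replicate 3. Without both libraries with foreign transcripts, Fn1 gave -0.63, Ptges -1.83, Csf1 -0.68 and Ebp 0.0550. Under RLE scaling, upper quartile scaling and DESeq2, C5ar1 gave -0.0358, -0.0415 and -0.0359 and Adgre1 -0.0186, -0.0240 and -0.0186, and Ebp gave 0.00198 with the 6 supernatant libraries alone. With 13047772 to 26966644 counts a library, a gene under 0.1 CPM rests on a few counts.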
